A study of Homo sapiens with 8 samples.

Results

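Long intergenic noncoding RNAs were examined in 8 RNA-seq libraries of colorectal cancer cells depleted of UHRF1. The set holds every gene whose symbol is LINC followed by 5 digits and whose TPM (transcripts scaled to a fixed total per library and to gene length) exceeded 1 in both libraries of at least 1 of 4 groups. Of 2145 LINC-named gene identifiers, 218 met this rule, out of 60649 identifiers in the tables and 16529 genes of any kind that met the same TPM condition. HCT116, a human colorectal cancer line, and UF1hypo, a single clone derived from it that lacks an exon of 1 UHRF1 allele (UHRF1+/-), each expressed either a scrambled-control hairpin (shScr) or one that targets UHRF1 (shUHRF1). The groups were HCT116 shScr, HCT116 shUHRF1, UF1hypo shScr and UF1hypo shUHRF1, with 2 libraries each. All 4 groups were stable pools made with lentivirus and selected with puromycin, and the control pools therefore share the infection and the drug. UF1hypo rests on 1 clone, so the loss of the allele and other differences of that clone cannot be told apart. The pools were harvested on either of a pair of days after infection, and which day applies to these libraries is not given in the sources used here.

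LINC symbols are given to long noncoding RNAs that lie between protein-coding genes and have no better established name. They are transcribed by RNA polymerase II, and many are spliced and polyadenylated and are expressed at low levels in few tissues. UHRF1 recognizes hemimethylated DNA behind the replication fork and recruits the maintenance methyltransferase DNMT1, and loss of DNA methylation can activate promoters that were silent, those of noncoding RNAs included. DNA methylation was not analysed here.

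The name describes most but not all of the 218 RNAs. In GENCODE release 44, 203 were annotated as long noncoding RNAs, 12 as transcribed pseudogenes of several kinds and 3 as protein-coding genes, and 18 carried another symbol. The body of 37 overlapped that of a protein-coding gene, and exons of 26 overlapped protein-coding exons. Whether the libraries kept strand is not given in the sources used here, so reads of such overlapping pairs cannot be told apart. Reads of the 12 pseudogenes may be shared with near-identical genes, and their values are uncertain.

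The promoters shown here belong to RNAs on which the results below turn. The first 4 belong to RNAs that exceeded 1 TPM in UF1hypo shUHRF1 only, the next 2 to RNAs called higher on knockdown in UF1hypo and the last to one called lower. Each runs from 250 bases before to 50 bases after the RefSeq start (GRCh38.p14), 5′ to 3′ on the strand of the gene, with the CG dinucleotides, the sites of DNA methylation, in capitals.
LINC01518: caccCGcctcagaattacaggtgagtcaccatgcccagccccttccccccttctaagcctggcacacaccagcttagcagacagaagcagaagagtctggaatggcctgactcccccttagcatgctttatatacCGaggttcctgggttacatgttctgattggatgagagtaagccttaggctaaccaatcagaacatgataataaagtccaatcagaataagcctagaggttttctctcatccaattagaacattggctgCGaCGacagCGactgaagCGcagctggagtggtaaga
LINC01426: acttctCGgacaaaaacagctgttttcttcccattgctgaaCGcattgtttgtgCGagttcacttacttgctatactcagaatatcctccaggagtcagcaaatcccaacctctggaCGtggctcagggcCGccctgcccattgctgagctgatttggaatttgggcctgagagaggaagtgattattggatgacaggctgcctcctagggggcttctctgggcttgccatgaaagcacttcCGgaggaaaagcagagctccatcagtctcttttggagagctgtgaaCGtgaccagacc
LINC00479: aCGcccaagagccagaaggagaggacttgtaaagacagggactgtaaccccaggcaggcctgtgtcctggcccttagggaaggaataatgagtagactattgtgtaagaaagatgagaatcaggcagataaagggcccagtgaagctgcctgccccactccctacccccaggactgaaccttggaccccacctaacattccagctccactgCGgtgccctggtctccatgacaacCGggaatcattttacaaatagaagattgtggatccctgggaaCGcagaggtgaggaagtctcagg
LINC00454: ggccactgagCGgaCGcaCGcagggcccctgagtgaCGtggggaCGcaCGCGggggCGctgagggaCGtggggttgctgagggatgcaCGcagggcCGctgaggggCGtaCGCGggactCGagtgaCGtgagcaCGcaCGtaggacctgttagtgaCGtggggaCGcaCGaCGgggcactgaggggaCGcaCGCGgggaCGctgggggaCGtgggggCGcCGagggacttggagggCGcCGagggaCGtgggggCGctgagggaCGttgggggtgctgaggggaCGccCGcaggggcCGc
LINC01615: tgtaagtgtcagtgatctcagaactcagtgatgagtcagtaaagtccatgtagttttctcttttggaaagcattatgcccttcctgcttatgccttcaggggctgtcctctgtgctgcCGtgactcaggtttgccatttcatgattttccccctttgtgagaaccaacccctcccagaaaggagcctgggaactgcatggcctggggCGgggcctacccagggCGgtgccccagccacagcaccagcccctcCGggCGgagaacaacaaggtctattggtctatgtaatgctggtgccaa
LINC00514: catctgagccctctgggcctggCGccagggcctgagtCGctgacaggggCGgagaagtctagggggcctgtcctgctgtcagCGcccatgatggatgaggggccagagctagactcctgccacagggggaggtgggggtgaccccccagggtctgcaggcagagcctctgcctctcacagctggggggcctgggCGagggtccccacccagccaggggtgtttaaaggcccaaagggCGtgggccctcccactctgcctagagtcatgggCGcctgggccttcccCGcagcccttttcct
LINC01315: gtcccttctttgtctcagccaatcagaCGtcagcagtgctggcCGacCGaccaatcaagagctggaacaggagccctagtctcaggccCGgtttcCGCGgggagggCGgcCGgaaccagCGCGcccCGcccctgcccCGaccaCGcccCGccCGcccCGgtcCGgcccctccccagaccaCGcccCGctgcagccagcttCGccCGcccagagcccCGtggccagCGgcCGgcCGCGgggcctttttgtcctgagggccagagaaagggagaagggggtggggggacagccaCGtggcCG
LINC01518 lies on the minus strand (chr10:42691710-42692009), as do LINC00479 (chr21:41715726-41716025), LINC00454 (chr13:113883437-113883736), LINC01615 (chr6:169162940-169163239) and LINC01315 (chr22:42369159-42369458). LINC01426 (chr21:34745575-34745874) and LINC00514 (chr16:2988012-2988311) lie on the plus strand.

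Beside all RefSeq promoters, those shown ranged from poor to rich in CG. LINC00479 held 4 CG dinucleotides, LINC01615 held 5, LINC01518 held 6, LINC01426 held 7 and LINC00514 held 8. Between 24.5% and 39.3% of the 35116 RefSeq promoters had fewer. The median was 14 over all RefSeq promoters but 4 over the 1578 of LINC-named genes, so none of those shown lay below the latter. LINC01315 held 28, with 73.8% of promoters below it, and LINC00454 held 37, with 88.7% below it. LINC00454, one of the RNAs above 1 TPM in UF1hypo shUHRF1 only, thus had a promoter denser in CG than LINC01315, which was called lower in the same cells. The letters TATAAA, searched on both strands, occurred in the promoter of LINC01518. They occurred in 11.5% of all promoters and in 16.3% of those of LINC-named genes. RefSeq promoters were matched for 146 of the 218 RNAs (67.0%), below the 80% that a comparison of CG content or motifs between sets of RNAs was taken to need, so that comparison is void.

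UHRF1 (ENSG00000276043.5; chromosome 19, 4903080 to 4962154, plus strand) had TPM values of 87.5 and 98.4 (shScr) and 31.7 and 32.7 (shUHRF1) in HCT116, and of 47.3 and 50.6 (shScr) and 34.1 and 21.1 (shUHRF1) in UF1hypo. The shUHRF1 libraries lay below the shScr libraries in both lines. Depth, which coverage divided by FPKM gives, lay between 5.42 and 7.84 gigabases of aligned sequence. The tables hold no counts, so the reads behind a single TPM are unknown, a TPM of 0 is given as listed at 0, and no interval from counts was formed. The UF1hypo shUHRF1 libraries agreed less well with each other than those of other groups. Pearson's r across 19762 genes, which are not independent replicates, was 0.959 there and 0.987 in each other group. The difference between the UF1hypo shUHRF1 libraries followed the GC content of the transcripts (Spearman's rho 0.71). That rho was −0.37 for the UF1hypo shScr libraries, and −0.03 and −0.04 for HCT116 with shScr and shUHRF1. Of 11 epithelial markers, 7 exceeded 1 TPM in every group, with KRT8 the highest. The summed TPM of the 11 ran from 4356 to 4410 in HCT116 shScr, 5487 to 5606 in HCT116 shUHRF1, 8822 to 9095 in UF1hypo shScr and 9968 to 12781 in UF1hypo shUHRF1. KRT8, KRT18 and KRT19 made up most of these sums. EPCAM was lower with shUHRF1 in both lines, at 357 and 327 TPM in UF1hypo shScr against 174 and 314 in UF1hypo shUHRF1. KRT20 was higher with shUHRF1 in both lines, at 9.28 and 9.06 TPM in UF1hypo shScr against 75.0 and 111 in UF1hypo shUHRF1. CDH1 was higher with shUHRF1 in UF1hypo, at 58.7 and 52.8 TPM (shScr) against 102 and 112 (shUHRF1), and lower in HCT116. CDH17, VIL1, CEACAM5 and LGALS4 stayed below 1 TPM in all libraries. Of 10 leukocyte markers, at most 2 exceeded 1 TPM in a group, with summed TPM from 2.87 to 8.58, and PTPRC was listed at 0 in the HCT116 and UF1hypo shScr libraries. COL1A1, of 7 fibroblast markers, was the one above 1 TPM, and LUM was listed at 0 in all libraries, with summed TPM from 21.2 to 66.2, the highest in UF1hypo shUHRF1. The part of these shifts in the results was not tested.

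Most LINC-named RNAs were scarce, and the largest number was detected in UF1hypo shUHRF1. TPM above 1 in both libraries held for 133 (shScr) and 127 (shUHRF1) of the 218 in HCT116, and for 134 (shScr) and 177 (shUHRF1) in UF1hypo. By library, with the groups in that order, 150 and 143, 146 and 141, 150 and 145, and 188 and 191 of them exceeded 1 TPM. These counts were selected on the TPM values themselves and are given with no test. A broader count, that of all 2145 LINC-named identifiers with any TPM above 0, was 383 and 441, 436 and 444, 421 and 498, and 646 and 650 in the same order of groups. Both UF1hypo shUHRF1 libraries were above the other 6. The count includes the 218 RNAs, so the rule fixed part of it, and the other identifiers were not counted alone. With 2 libraries against 2, the smallest two-sided p of an exact permutation test is 0.333. For all genes the number with TPM above 0 ranged from 23393 to 26016 in those 6 libraries and was 28056 and 28412 in UF1hypo shUHRF1. The number of all genes above 1 TPM in both libraries was 14144 (shScr) and 14176 (shUHRF1) in HCT116. In UF1hypo it was 14287 (shScr) and 15373 (shUHRF1).

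Together the 218 RNAs took 0.0956% and 0.102% of the TPM of the UF1hypo shUHRF1 libraries, and 0.0635% to 0.0712% in each of the others. The rule favours the former, because 49 of the RNAs entered through that group only, and nothing is read from the higher share. The median over the RNAs of the mean TPM across libraries was 2.04, against 21.0 for the 13075 protein-coding genes that met the TPM condition. A mean above 10 TPM was reached by 15 of the 218. Of the 218 RNAs, 86 exceeded 1 TPM in both libraries of all 4 groups, 49 in UF1hypo shUHRF1 only, 14 in both UF1hypo groups and neither HCT116 group, and 49 in at least 1 HCT116 group but not in both UF1hypo groups. The remaining 20 had other patterns. Of the 16529 genes of any kind, 12970 (78.5%), 1287 (7.79%), 347 and 1366 fell in these 4 sets in the same order.

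**Figure D1:**
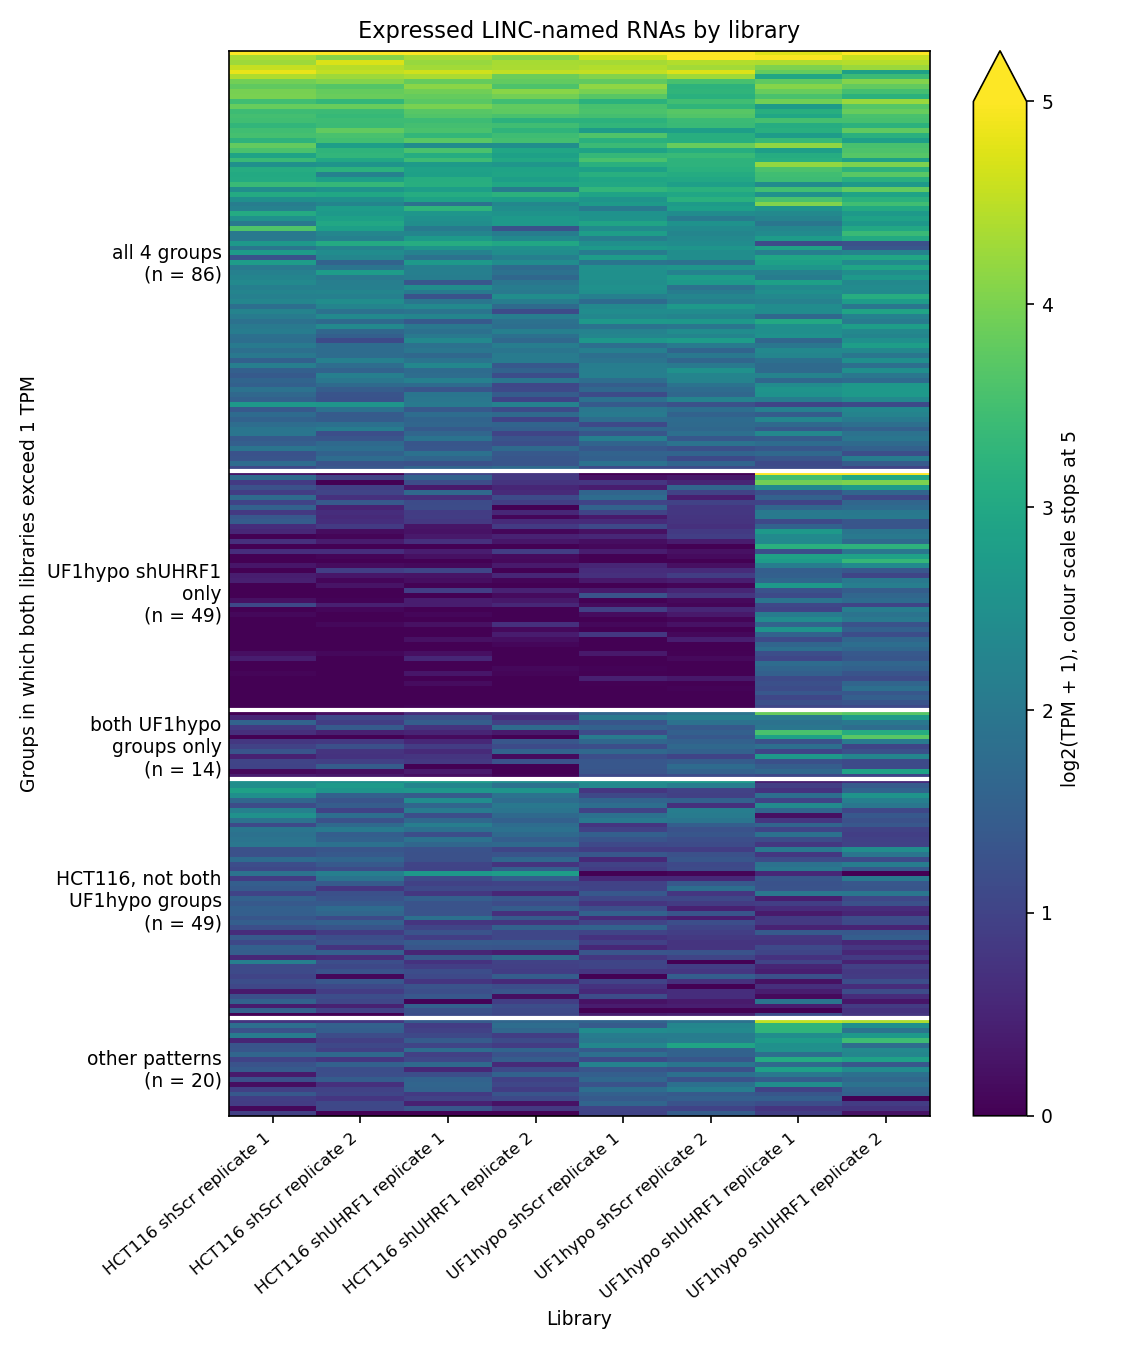
Each row is 1 of the 218 RNAs and each column 1 library, with colour giving log2(TPM + 1). White lines separate the sets of RNAs by the groups in which both libraries exceed 1 TPM, and rows within a set are ordered by their mean. The 49 RNAs above 1 TPM in UF1hypo shUHRF1 only range, in single libraries of the other groups, from 0 to values near or above 1 TPM. LINC02273, one of these RNAs, has 0.867 to 1.62 TPM outside UF1hypo shUHRF1.

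Replicates differed more for these RNAs than for protein-coding genes in 3 groups. Among RNAs above 1 TPM in both libraries of a group, the median absolute log2 ratio between replicates was 0.33 and 0.28 in HCT116 with shScr and shUHRF1, and 0.27 and 0.41 in UF1hypo. For protein-coding genes it was 0.12, 0.17, 0.17 and 0.49. A gap above 2-fold between replicates was seen in 10 of 133, 7 of 127, 5 of 134 and 20 of 177 RNAs of these groups, or 7.52%, 5.51%, 3.73% and 11.3%. For protein-coding genes the shares were 0.828%, 1.007%, 0.892% and 14.5%, so that in UF1hypo shUHRF1 theirs was the larger.

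The set of 49 in UF1hypo shUHRF1 holds the RNA with the highest group level of all. These RNAs were chosen by the contrast described here, so their values are a description and no test is given. LINC00958 (ENSG00000251381.8; chromosome 11, 12961541 to 12989597, minus strand, 3 exons), which has been described in several carcinomas, had TPM values of 40.6 and 52.3 in UF1hypo shUHRF1, while UF1hypo shScr listed it at 0 in each library. In HCT116 it had 0.212 and a value listed at 0 with shScr, and 1.04 and 0.742 with shUHRF1. Both UF1hypo shUHRF1 libraries lay far above the other 6, and the HCT116 shUHRF1 libraries lay above the HCT116 shScr libraries without both reaching 1 TPM.

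LINC02575, on chromosome 21, had 14.2 and 15.1 TPM in UF1hypo shUHRF1 and 0.735 and 0.431 in UF1hypo shScr. Its HCT116 values ran from a value listed at 0 to 1.24. LINC02882, a gene of 12 exons that spans 73820315 to 74402600 on chromosome 12, had 10.3 and 7.14 TPM in UF1hypo shUHRF1, 0.17 and 0.25 in UF1hypo shScr, and 0.770 to 2.29 in HCT116. The UF1hypo shScr values of LINC02882 were thus the lowest of the 4 groups.

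LINC02780, on chromosome 1, was listed at 0 in all 4 HCT116 libraries and in 1 UF1hypo shScr library, had 0.0712 in the other and 7.98 and 8.40 in UF1hypo shUHRF1. LINC01160, which lies within the body of RAP1A, had 5.76 and 8.99 TPM in UF1hypo shUHRF1 and was listed at 0 in 5 of the other 6 libraries, with 0.0967 in the sixth. LINC01518, whose promoter is shown above, had 6.33 and 6.27 TPM in UF1hypo shUHRF1 and at most 0.162 elsewhere. These 3 RNAs were at or near 0 outside UF1hypo shUHRF1.

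LINC00243, LINC00452, LINC00479 and LINC01426 complete the 10 highest, with group means of 4.93, 4.46, 4.17 and 3.79 TPM in UF1hypo shUHRF1. LINC00243 was the least clear of the 10, since UF1hypo shScr gave 0.315 and 2.08 TPM against 4.14 and 5.72 in UF1hypo shUHRF1. LINC01426 had 3.35 and 4.24 TPM in UF1hypo shUHRF1 and at most 0.436 elsewhere. Over the 49 RNAs the group mean in UF1hypo shUHRF1 ran from 1.09 to 46.4 TPM with a median of 2.11, and 16 exceeded 3 TPM. Both UF1hypo shScr libraries listed 10 of the 49 at 0, and both HCT116 shScr libraries listed 19 at 0.

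**Figure D2:**
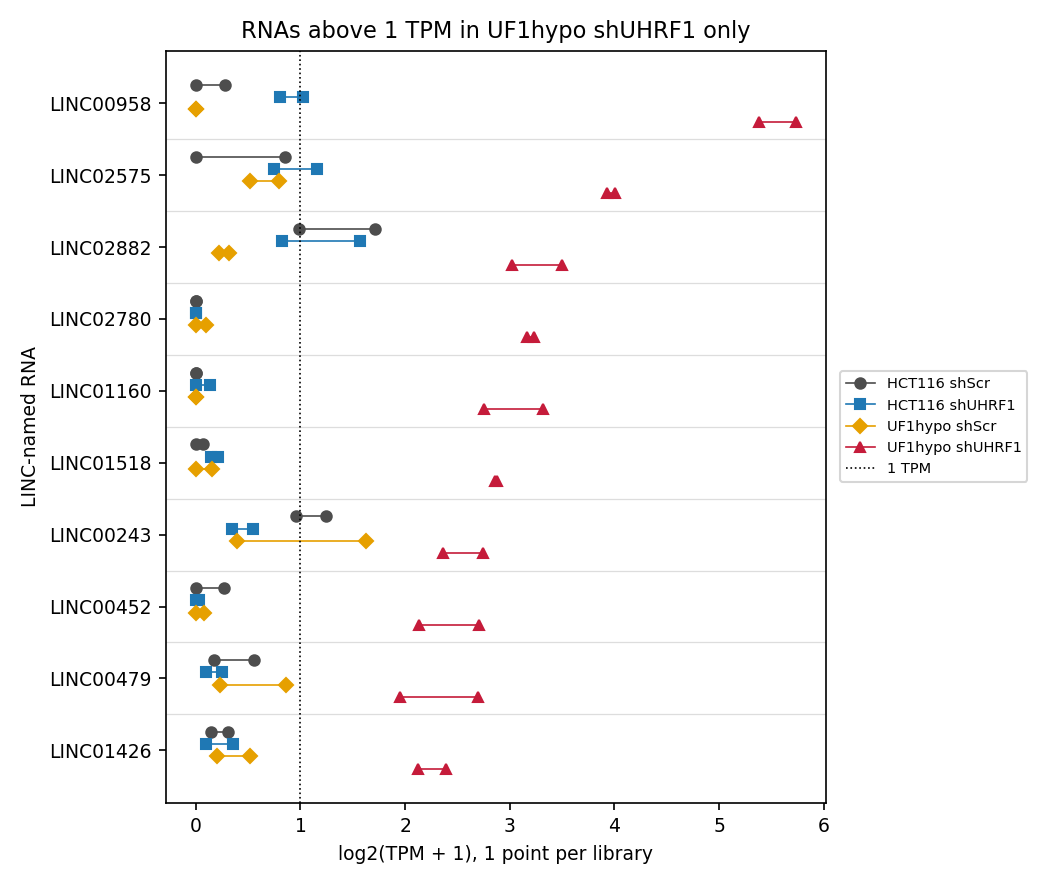
Values of log2(TPM + 1) are given for the 10 RNAs with the highest mean TPM in UF1hypo shUHRF1 among the 49 above 1 TPM in that group only, with 1 point per library, lines joining the replicates of a group and a dotted line at 1 TPM. For LINC00958 the UF1hypo shUHRF1 libraries are at 40.6 and 52.3 TPM, and for every RNA shown both lie above the other 6 libraries.

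Some of these RNAs were neighbours. LINC00479 and LINC00112 start 31 bp apart on opposite strands of chromosome 21, 51314 and 51283 bp from the start of RIPK4, a kinase of epithelial differentiation. LINC00479 had 5.46 and 2.87 TPM in UF1hypo shUHRF1, and LINC00112 had 3.24 and 2.72. All other values of the pair were at most 0.813. RIPK4 itself had 18.9 and 18.3 TPM in UF1hypo shScr against 27.8 and 18.9 in UF1hypo shUHRF1, which did not pass the test (limma log2 fold change 0.29, adjusted p = 0.444).

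LINC00454, LINC00452 and LINC00565 lie side by side on chromosome 13, where LINC00452 and LINC00565 overlap on opposite strands and LINC00454, on the minus strand, starts 4655 bp from the start of LINC00452. Their TPM in UF1hypo shUHRF1 was 2.1 and 2.50, 5.53 and 3.38, and 2.18 and 3.01, and every other value of the 3 was at most 0.363. The protein-coding gene that starts nearest to LINC00452 is GAS6, the ligand of the TAM receptor kinases, at 24230 bp. Its TPM was 89.0 and 91.0 in UF1hypo shScr against 217 and 141 in UF1hypo shUHRF1, a limma estimate of 0.95 on the log2 scale (adjusted p = 0.021) that stayed under the threshold of 1. Chromosome 21 held 9 of the 218 RNAs, and 6 of the 9 exceeded 1 TPM in UF1hypo shUHRF1 only. Every other chromosome had at most 5 RNAs of that set.

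To compare groups without the rule deciding the outcome, each contrast was restricted to RNAs above 1 TPM in both libraries of every group compared. Calls required an adjusted p (limma, Benjamini-Hochberg over all genes tested) under 0.05 and a log2 fold change beyond 1 in either direction. Log2 fold changes are differences of mean log2(TPM + 1) values, a scale that makes changes of low RNAs look smaller, and replicate libraries may share a culture, so p-values measure only the spread between libraries.

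On UHRF1 knockdown in UF1hypo cells, 9 of 115 such RNAs rose and 2 fell, against 5 and 2 under quantile normalization. This is 9.57%, beside 5.05% of the 13695 genes of any kind under the same condition. The median log2 fold change of the 115 was 0.19 and that of the 13695 genes 0.02, which became −0.07 and −0.10 under quantile normalization. When single libraries were left out, the numbers called changed for these RNAs and for genes of any kind, and not in step. The larger share among these RNAs is therefore not taken as a result. With no fold threshold, 15 of the 115 had an adjusted p below 0.05, beside 1164 of the 13695 genes.

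LINC01694 (ENSG00000233922.3; chromosome 21, 45593654 to 45603088, plus strand) had the largest change. Its TPM was 2.07 and 2.68 in UF1hypo shScr against 21.9 and 19.9 in UF1hypo shUHRF1, a log2 difference of 2.70 (standard error, SE, 0.225 and limma adjusted p = 0.000249). In HCT116 the shScr libraries gave 0.687 and 0.756 TPM and the shUHRF1 libraries 1.71 and 2.13, so the libraries of shUHRF1 lay above those of shScr in both lines. The HCT116 change of 0.76 did not pass the test (adjusted p = 0.470), and the difference of the 2 knockdown effects was 1.95 (adjusted p = 0.0174), in which the choice of RNAs above 1 TPM played a part because HCT116 shScr lay below 1.

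LINC01615 (chromosome 6, 169157162 to 169162992) had 2.05 and 2.80 TPM in UF1hypo shScr against 13.3 and 12.0 in UF1hypo shUHRF1. The log2 fold change was 2.00 (SE 0.240, adjusted p = 0.00165). In HCT116 it ran from a value listed at 0 to 0.740. LINC00514 (chromosome 16, 2988256 to 3002016), which GENCODE release 44 lists as the protein-coding gene GREP1, went from 1.19 and 1.90 to 10.8 and 7.55 TPM, with a log2 fold change of 2.00 (SE 0.275, adjusted p = 0.00322). LINC01694, LINC01615 and LINC00514 were called in all 13 alternatives computed for this contrast. The largest record per identifier, 1 of the 13, gave the same values as the main fit and adds no support. Only 2 identifiers have more than 1 record.

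LINC01006, annotated in GENCODE release 44 as RNF32-DT, had 1.14 and 1.51 TPM in UF1hypo shScr against 7.31 and 6.31 in UF1hypo shUHRF1. Its log2 fold change was 1.75 (SE 0.256, adjusted p = 0.00407), and the call was lost with library weights (adjusted p = 0.0649) and without UF1hypo shScr replicate 1 (adjusted p = 0.0514). RNF32, which starts 373 bp away on the other strand and shares exonic sequence with it, had a log2 fold change of −0.14 (SE 0.315, adjusted p = 0.808). LINC02574 (chromosome 1, 27660328 to 27666279) had 3.23 and 1.58 TPM in UF1hypo shScr against 6.21 and 12.2 in UF1hypo shUHRF1, and was listed at 0 in 3 of the 4 HCT116 libraries. Its log2 fold change was 1.56 (SE 0.356, adjusted p = 0.0274), with adjusted p = 0.0603 and 0.177 without replicate 1 and replicate 2 of UF1hypo shScr.

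The first part of LINC02574 overlaps exons at the end of IFI6, an interferon-induced gene on the same strand. IFI6 had between 16.2 and 34.1 TPM in HCT116 libraries, 1721 and 1698 in UF1hypo shScr against 5555 and 5921 in UF1hypo shUHRF1. IFI6 and LINC02574 thus followed the same order of groups, and reads of the stretch they share cannot be told apart.

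The other RNAs that rose, outside the rule for named RNAs and named after their values were seen, were LINC00944, LINC01588, LINC00680 and LINC00482, with log2 fold changes of 1.37, 1.36, 1.21 and 1.03. Their calls depended on the processing, since of the 13 alternatives LINC00944 and LINC01588 were called in 5 each and LINC00680 and LINC00482 in 2 each, and none of the 4 was called with either UF1hypo shScr library left out. For each of the 4 these counts include the largest record per identifier, which gave the same values as the main fit. LINC00482 had the highest level of the 4, at 5.65 and 5.58 TPM in UF1hypo shScr against 15.6 and 10.01 in UF1hypo shUHRF1.

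LINC01315 and LINC01963 fell. LINC01315 (ENSG00000229891.2; chromosome 22, 42364390 to 42369284, minus strand) had 22.3 and 25.7 TPM in UF1hypo shScr against 13.2 and 6.18 in UF1hypo shUHRF1, while all 4 HCT116 libraries lay between 21.9 and 27.7. The log2 fold change was −1.31 (SE 0.303, adjusted p = 0.0295). Its fold change moved from −1.80 without replicate 1 of UF1hypo shUHRF1 to −0.82 without replicate 2, where it was no longer called, and it was not called without either UF1hypo shScr library (adjusted p = 0.138 and 0.175). LINC01963 (chromosome 2, 216217045 to 216220192, 1 exon) had 4.59 and 4.39 TPM in UF1hypo shScr against 1.25 and 1.37 in UF1hypo shUHRF1, a log2 difference of −1.25 (SE 0.225, adjusted p = 0.0105). Without UF1hypo shScr replicate 1 its adjusted p was 0.0953, and without replicate 2 it was 0.0784. HCT116 libraries gave 5.35 to 7.58 TPM.

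**Figure D3:**
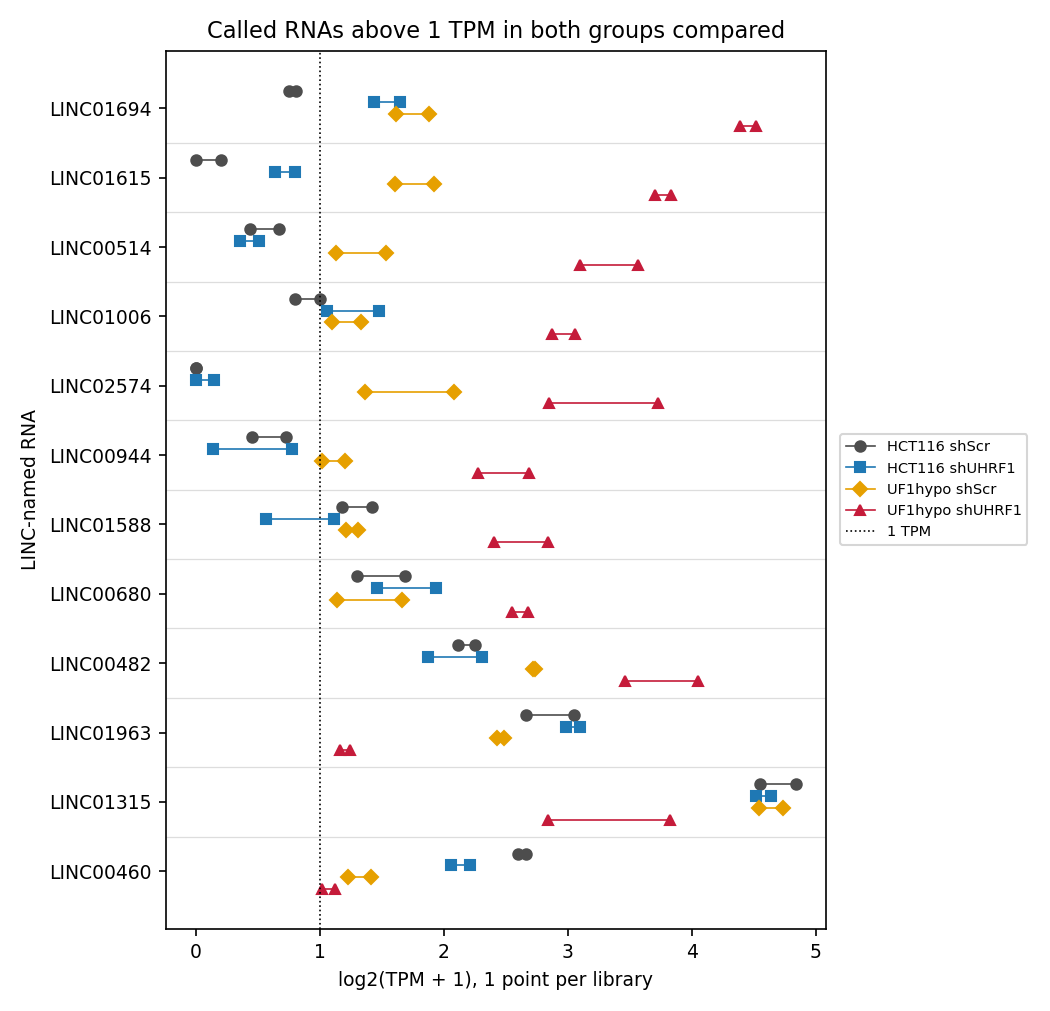
Values of log2(TPM + 1) are given for the 11 RNAs called on knockdown in UF1hypo, ordered by fold change, and for LINC00460, called between the control groups, with 1 point per library, lines joining the replicates of a group and a dotted line at 1 TPM. The 9 RNAs at the top have both UF1hypo shUHRF1 libraries above both UF1hypo shScr libraries, and LINC01963 and LINC01315 have them below.

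In HCT116 cells, 0 of 110 RNAs were called on knockdown in the limma fit, beside 0.0147% of 13606 genes. UHRF1 itself was not called in this fit (log2 fold change −1.50, limma adjusted p = 0.0904). A lack of calls here therefore does not show a lack of response. An unadjusted p below 0.05 was reached by 4 of the 110, a smaller share than the 748 of 13606 genes. The 4, named because they are few, were LINC02454, LINC00513, LINC01405 and LINC02804, with log2 fold changes of −1.56, −0.85, 0.70 and −0.55 and adjusted p-values of 0.345 to 0.718. LINC02454 was called with the 4 HCT116 libraries alone. In that fit 64 genes of any kind were called, and UHRF1 had a limma adjusted p of 0.000345. Of the 110 RNAs, 50 had a positive change.

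**Figure D4:**
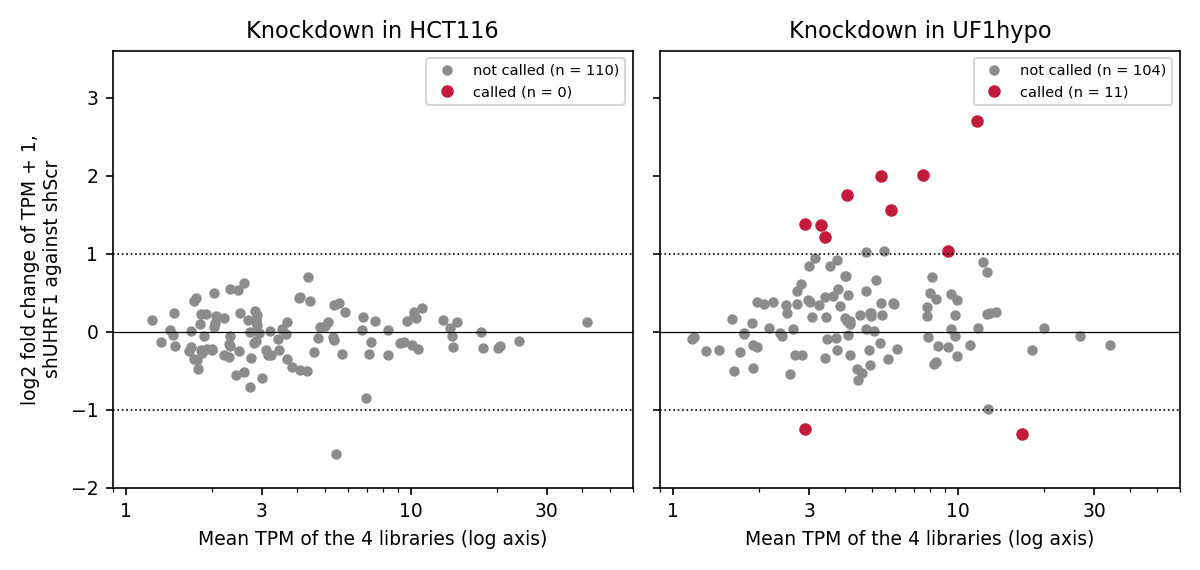
The log2 fold change on UHRF1 knockdown, on the TPM + 1 scale, is plotted against the mean TPM of the 4 libraries on a log axis for RNAs above 1 TPM in both libraries of both groups, with dotted lines at the fold threshold. Of 110 RNAs in HCT116 none is marked as called, and of 115 in UF1hypo 9 above and 2 below 0 are.

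When the knockdown effect in UF1hypo was tested against that in HCT116, limma called 0 of the 86 RNAs above 1 TPM in all 4 groups, beside 1.87% of 12970 genes. An unadjusted p below 0.05 was reached by 11 of the 86, beside 1823 of the 12970 genes, a larger share. LINC01963 came near the threshold, with a difference of −1.43 (limma adjusted p = 0.0547), and was called under median-ratio scaling, quantile normalization and the GC and length correction. With either UF1hypo shUHRF1 library left out, a few RNAs passed. The number of genes of any kind called rose in those fits as well, and nothing is read from these calls. A larger effect in UF1hypo than in HCT116 was therefore not shown for RNAs expressed in all groups.

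Between the control groups, UF1hypo shScr and HCT116 shScr, 1 of 109 RNAs was called, beside 2.41% of 13489 genes. It was LINC00460 (ENSG00000233532.6; chromosome 13, 106374477 to 106384315, plus strand), which has been linked to growth and invasion of epithelial tumours. Its TPM was 5.35 and 5.06 in HCT116 shScr, 3.16 and 3.64 after knockdown in that line, 1.66 and 1.35 in UF1hypo shScr, and 1.03 and 1.18 after knockdown there. Its libraries did not overlap between the 4 groups, though between the control groups the same held for 64.5% of the 13489 genes. The log2 fold change between the control groups was −1.31 (SE 0.223, adjusted p = 0.0177), and the call was lost, with adjusted p between 0.116 and 0.179, when any of the 4 libraries was left out. EFNB2, the ligand ephrin-B2, is the protein-coding gene that starts nearest to LINC00460, at 161185 bp. It had 38.4 and 37.4 TPM in HCT116 shScr and 7.19 and 7.05 in UF1hypo shScr, a log2 difference of −2.26 (SE 0.188, adjusted p = 0.000548).

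The 14 RNAs above 1 TPM in both UF1hypo groups only were chosen by the contrast between the lines, and that contrast is given as a description. LINC01615 had 0 and 0.149 TPM in HCT116 shScr against 2.05 and 2.80 in UF1hypo shScr. LINC01232, whose exons overlap those of TM9SF2, had 0.437 and 1.15 TPM in HCT116 shScr and 3.05 and 3.39 in UF1hypo shScr. LINC02616, on chromosome 4, had 0.0864 and 0.142 in HCT116 shScr and 1.5 and 1.96 in UF1hypo shScr. For LINC01431 and LINC02762 the libraries of the control groups overlapped, with LINC02762 at 2.02 and 0.884 TPM in HCT116 shScr and 1.51 and 2.70 in UF1hypo shScr. The mean TPM of the 14 over the UF1hypo libraries ran from 1.16 to 7.54.

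Of the 49 RNAs found in HCT116 but not in both UF1hypo groups, few had clear gaps, and their mean TPM over the HCT116 libraries had a median of 1.46. LINC01405, which starts 13147 bp from MYL2 on chromosome 12, had 2.71 and 3.48 TPM in HCT116 shScr and 5.34 and 5.91 in HCT116 shUHRF1. In UF1hypo it was listed at 0 in 2 libraries and had at most 0.470 in the others. LINC02331, a gene of chromosome 14, had 4.99 to 6.23 TPM in HCT116 libraries and 0.657 to 2.07 in UF1hypo libraries. Both RNAs were lower in every UF1hypo library, which the choice of this set favours, and no test is given for it.

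LINC02458, which starts 42935 bp from DUSP6, a phosphatase of the ERK pathway, was low in UF1hypo shUHRF1, again a description of values that chose it. It had 4.36 to 5.52 TPM in the other 6 libraries and 0.369 and 0.551 in UF1hypo shUHRF1. LINC02035 followed the same order less clearly, with 2.70 to 5.42 TPM in 6 libraries and 0.883 and 1.69 in UF1hypo shUHRF1. LINC01786, by contrast, varied as much within as between groups, at 3.50 and 0.990 TPM in HCT116 shScr and 0.970 and 3.32 in UF1hypo shScr.

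The 10 most abundant of the 86 RNAs above 1 TPM in all groups were LINC02210, LINC00963, LINC01234, LINC01184, LINC01315, LINC00173, LINC00839, LINC01089, LINC00674 and LINC00339. LINC02210, an annotated pseudogene that shares sequence with the readthrough gene LINC02210-CRHR1, was highest at 25.8 to 49.6 TPM. LINC01234 varied little, from 17.8 to 25.4 TPM, with log2 fold changes of −0.20 on knockdown in HCT116 and 0.04 in UF1hypo. LINC00963 had 16.1 to 19.3 TPM in HCT116 libraries and 22.8 to 31.5 in UF1hypo libraries, and its difference between the control groups did not pass the test (log2 fold change 0.59, adjusted p = 0.238). LINC00173 had 15.7 and 18.6 TPM in UF1hypo shScr against 6.78 and 9.68 in UF1hypo shUHRF1. Its log2 fold change of −0.99 (SE 0.244, adjusted p = 0.0370) fell just short of the fold threshold. It was called lower under 5 alternatives, with log2 fold changes of −1.07 (pseudocount of 0.1), −1.02 (median-ratio scaling), −1.11 (quantile normalization), −1.35 (GC and length correction) and −1.22 (without UF1hypo shUHRF1 replicate 2).

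A list of 20 LINC RNAs with described roles in cancer or differentiation was read against the data, of which 18 were matched and 12 were among the 218. The other 6 matched RNAs stayed at or below 0.892 TPM in every library. Of the 12, 10 exceeded 1 TPM in all groups. On knockdown in UF1hypo 1 of the 10 fell, LINC01315, and 0 rose, beside 5.05% of all genes called. Between the control groups 1 of 10 fell, LINC00460, whose call was lost when any 1 of those libraries was left out, beside 2.41% of genes called. On knockdown in HCT116, limma called 0 of the 10, beside 0.0147% of genes. LINC00511, described as promoting proliferation in several tumours, had 8.13 and 10.02 TPM in UF1hypo shScr against 14.3 and 18.0 in UF1hypo shUHRF1 (log2 fold change 0.77, SE 0.214, adjusted p = 0.0565). LINC00958 and LINC00665, also among the 12, were above 1 TPM in both libraries of UF1hypo shUHRF1 only, and no test is given for them. LINC00958 had 40.6 and 52.3 TPM there and at most 1.04 elsewhere. LINC00665 had 1.19 and 2.13 TPM there and at most 0.341 elsewhere.

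The threshold passed through a continuum of low values. The RNAs just inside were LINC01836, LINC02273 and LINC01771, whose lower library in the best group had 1.0006, 1.0009 and 1.0066 TPM. Just outside were LINC00639, LINC02256 and LINC02352, with 0.969, 0.944 and 0.935 TPM. LINC00639 resembled the 49, with 1.79 and 0.969 TPM in UF1hypo shUHRF1 and at most 0.0452 elsewhere, while LINC02273 had values from 0.867 to 2.13 across all libraries although it counted among the 49.

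Protein-coding neighbours were examined, whose values the rule had not used. They are not fully independent of the RNAs, since exons of 26 RNAs overlapped protein-coding exons. A neighbour was tested if any library of the contrast exceeded 1 TPM, so some may have entered through the group where they were higher. The 218 RNAs had 205 distinct nearest protein-coding genes, at a median start-to-start distance of 41957 bp. For 21 RNAs that distance was at most 1000 bp, and in 17 of these the pair was on opposite strands. Of 158 neighbours tested on knockdown in UF1hypo, 9 rose and 2 fell, beside 7.03% of 13620 protein-coding genes called higher. Of the 34 tested neighbours of RNAs above 1 TPM in UF1hypo shUHRF1 only, 2 rose. They were WNT5B, a ligand of noncanonical WNT signalling 29366 bp from LINC00942, with a log2 fold change of 1.97, and ADGRD1, an adhesion receptor 211104 bp from LINC01257, with 1.55.

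The neighbours of called RNAs moved in some cases and not in others. THBS2, which encodes the matrix protein thrombospondin 2, starts 91058 bp from LINC01615. It had 2.74 and 1.85 TPM in UF1hypo shUHRF1 and at most 0.258 in the other 6 libraries. THBS2 passed the TPM filter through that group only, so its values are a description and no test is given. IFI6 rose by 1.75 on the log2 scale (limma adjusted p = 0.000185). LINC02574 shares exon sequence with IFI6, so reads of that stretch cannot be told apart. The neighbours of LINC01694, LINC00514, LINC01315 and LINC01963, which are SLC19A1, PKMYT1, TCF20 and XRCC5, were not called, with log2 fold changes of 0.52, 0.48, 0.16 and −0.54 and adjusted p-values from 0.103 to 0.614. RASSF10, 19719 bp from LINC00958, had at most 0.198 TPM in any library.

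LINC-named RNAs were set beside other classes of gene under the same TPM condition. Of the expressed genes of each class, the share above 1 TPM in UF1hypo shUHRF1 only was 22.5% for LINC-named RNAs, 13.9% for 382 antisense RNAs, 12.8% for 94 divergent RNAs, 4% for 25 microRNA host genes and 4.89% for 13075 protein-coding genes. The share above 1 TPM in all groups was 39.4%, 57.1%, 46.8%, 68.0% and 88.0% in the same order. Over the 16529 genes of any kind, 7.79% were above 1 TPM in UF1hypo shUHRF1 only and 78.5% in all groups. These shares depend on a fixed TPM threshold and on the level of each class, whose median of mean TPM was 2.04, 2.75, 2.14, 3.70 and 21.0, and they were not tested.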

How the data were processed

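RNA-seq of polyadenylated RNA was analysed in 8 libraries. Read trimming by the authors used Fastp, alignment to GRCh38 used HISAT2 2.0.4, and StringTie 2.1.4 gave the gene values. As deposited by the authors, TPM values are normalized for gene length and to a fixed total per library, FPKM values for gene length and aligned bases, and coverage is the unscaled mean read depth of a gene. Depth was 5.42 to 7.84 gigabases. TPM was summed over records of an identifier, transformed as log2(TPM + 1) and fitted in limma 3.58.1 (R 4.3.3; variances following mean expression) with 4 groups as the only term and all 8 libraries, which leaves 4 residual degrees of freedom. Genes above 1 TPM in at least 1 library of a contrast were tested, with Benjamini-Hochberg adjustment over all of them. The fit was tested on simulated data. DESeq2, used by the authors, needs counts and was not run. Promoters came from RefSeq, other annotation from GENCODE release 44. Named RNAs are the 10 with the highest mean TPM in each of 4 sets, up to 5 called RNAs per direction and contrast whose libraries do not overlap, 3 on each side of the TPM threshold, and a list of RNAs with described roles. Members, lists and rules were chosen with earlier results of these data known. Alternatives were another pseudocount (0.1), no TPM filter, median-ratio scaling, quantile normalization, the largest record per identifier, library weights, a GC and length correction, a replicate block, the 4 libraries of a contrast alone, and each library left out. Repeat content of promoters was not computed.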

Additional observations from a re-analysis of the deposited data

How the results depend on the processing

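On knockdown in UF1hypo, 11 RNAs were called, beside 691 genes of any kind under the same condition. With a pseudocount of 0.1, 7 were called (4 higher, 3 lower), beside 619 genes, and without a TPM filter 5, beside 502. Quantile normalization gave 7 (5 higher, 2 lower), beside 669 genes. Library weights gave 3, beside 289 genes, and the 4 UF1hypo libraries alone gave 4, beside 288. The calls also changed when single libraries were left out. LINC01694, LINC01615 and LINC00514 were among the called RNAs in each of these. Quantile normalization moved the median log2 fold change of all genes tested in this contrast by −0.15 and the GC and length correction by −0.11, and that of the difference between lines by −0.18 and −0.14. On knockdown in HCT116 the 4 libraries alone gave 1 call (LINC02454), and 0 were called with any library left out. Between the control groups, 0 were called without a TPM filter, beside 153 genes. Library weights or the 4 libraries alone gave 4, beside 476 genes in each fit. The GC and length correction gave 2, beside 382 genes, and the call of the main fit was lost whichever library was left out. For the difference of the knockdown effects, median-ratio scaling, quantile normalization and the GC and length correction gave 1 call each. Genes of any kind called in these fits were 203, 198 and 597. The calls changed here too when single libraries were left out. The causes of these changes were not tested. With the replicate number as a block, 9 RNAs were called on knockdown in UF1hypo and 0 in HCT116, beside 611 and 0 genes. The block gave 1 between the control groups and 0 for the difference, beside 261 and 136 genes. Same-numbered libraries did not deviate together, with correlations across genes from −0.26 to 0.0091, and the labels name no shared batch, so the numbers were not taken as pairs. No counts were available, so the depth behind a low TPM is unknown, and a listed 0 does not show absence.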
